A study of Homo sapiens with 31 samples.

Results

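CircRNAs were examined from 42 genes of the insulin and IGF-1 signalling pathway during retinal differentiation of H9 human embryonic stem (ES) cells. A circRNA was counted as a member when the transcript in its deposited name belonged to one of these genes in the GENCODE annotation. By this rule 498 of the 55371 circRNAs in the deposited list were members, and they came from 34 of the 42 genes. By transcript, no circRNA could be assigned to IGF1R, IRS1, IRS2, PDPK1, AKT1, FOXO3, GSK3A or SHC1. For IGF1R this reflects the annotation, because the transcripts in the deposited names are not in the release used here: 11 circRNAs start and end at exons of IGF1R, and they are described below under that assignment. In all, exon ends placed a further 95 circRNAs in member genes, giving 593 circRNAs from 35 genes.

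Total RNA depleted of ribosomal RNA was sequenced in 15 libraries, 3 for each of 5 conditions. Undifferentiated H9 cells were collected at day 0, and differentiating cultures at day 45 and day 90, either untreated or supplemented with recombinant human IGF-1 at 5 ng/ml to day 37 and 10 ng/ml afterwards. All cultures came from 1 ES cell line, and whole cultures were harvested without selection of embryoid bodies, so each library is a mixture of cell types in which fewer cells of a type and less RNA per cell cannot be told apart. RNA integrity numbers were 9.8 to 10 at day 0, 7.6 to 9.1 at day 45 and 7.1 to 8.9 at day 90, and their part in the differences between days was not tested. The line was plated in triplicate, and p-values measure the spread between the libraries of these cultures.

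A circRNA forms when the donor site at the end of an exon is spliced back to the acceptor site at the start of the same or an earlier exon, and it is recognised by reads that cross this back-splice. Insulin and IGF-1 bind the receptor tyrosine kinases encoded by INSR and IGF1R. The receptors recruit adaptors, which engage the PI3K, AKT and mTOR branch that controls growth, protein synthesis and glucose metabolism, and the Ras, RAF and ERK branch that controls proliferation and differentiation. IGF-1 has been used in retinal differentiation protocols to promote the formation of retinal tissue.

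The values were raw back-splice read counts. Counts divided by the sequenced reads of the library are given as RPM. Libraries held 14992 to 17929 back-splice reads at day 0 and 42858 to 108946 later, of which 67 to 99 and 416 to 943, respectively, were from member circRNAs. Where a condition had 0 reads in its 3 libraries together, a level of up to 0.00692 to 0.0079 RPM is still allowed, taking 3 reads as the limit and counting error only. Among marker genes fixed for the labelled cells, circRNA reads of RMST, a long non-coding RNA of neurogenesis, stood at 0.246 ± 0.0281 RPM (SD, n = 3) at day 0 and 13.5 ± 5.92 RPM at untreated day 45, and those of FIRRE, listed for day 0, at 3.38 ± 1.03 and 1.00 ± 0.722 RPM. DCC, MAP2 and RIMS2 had higher means at day 45 than at day 0, PAX6 and POU5F1 had 0 reads in all conditions, LIN28B and DNMT3B had at most 0.00252 RPM in any condition, and BIRC6, also listed for day 0, stood at 0.181 and 1.42 RPM. The listed markers were for neural differentiation and for day 0 ES cells, so the retinal label was not checked. The ES cell label could not be checked beyond these circRNAs.

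Reads were concentrated in few members. GSK3B, RICTOR, SOS2, EIF4G3 and PIK3C3 held 5006 of the 8411 member reads, or 59.5%, and the 3 most abundant circRNAs held 28.3%. In contrast, 165 members, or 33.1%, had 1 read in all 15 libraries together, compared with 36.1% of all circRNAs. Only 108 of the 498 members, or 21.7%, reached the 10 summed reads needed for testing, compared with 22.6% of all circRNAs. 7 members were found in every library. At day 0, 100 of the 498 members had a read.

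The back-splice junctions of the most abundant members and of IGF1R exon 2 are shown for those with coding sequence on both sides, because the junction is the only part of each circRNA that the reads identify. Each line gives 25 bases of the donor exon in lower case followed by 25 bases of the acceptor exon in capitals, on the strand of the gene, with the outer coordinates of the circularised region on hg19 (GRCh37). Exons are numbered in the canonical GENCODE transcript.
circGSK3B Ex7-Ex9, chr3:119582266-119624699, minus strand: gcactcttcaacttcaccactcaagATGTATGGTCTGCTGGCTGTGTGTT
circGSK3B Ex8-Ex9, chr3:119582266-119595355, minus strand: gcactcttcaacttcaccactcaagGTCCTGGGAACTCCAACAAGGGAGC
circRICTOR Ex4-Ex7, chr5:38991051-39003724, minus strand: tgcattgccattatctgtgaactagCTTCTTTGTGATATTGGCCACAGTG
circRICTOR Ex3-Ex7, chr5:38991051-39021238, minus strand: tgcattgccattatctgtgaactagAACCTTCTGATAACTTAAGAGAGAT
circSOS2 Ex14, chr14:50616726-50616948, minus strand: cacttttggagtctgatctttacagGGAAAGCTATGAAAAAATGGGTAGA
circPIK3C3 Ex14-Ex21, chr18:39607407-39629569, plus strand: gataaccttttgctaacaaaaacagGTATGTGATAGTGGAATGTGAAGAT
circIGF2R Ex15-Ex18, chr6:160467530-160469575, plus strand: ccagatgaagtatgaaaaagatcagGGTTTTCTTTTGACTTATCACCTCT
circRASA1 Ex2-Ex5, chr5:86627165-86633908, plus strand: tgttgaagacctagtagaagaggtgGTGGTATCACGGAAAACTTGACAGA
circIGF1R Ex2, chr15:99250791-99251336, plus strand: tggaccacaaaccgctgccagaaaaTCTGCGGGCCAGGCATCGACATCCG

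The junction lines of GSK3B and of RICTOR show the same donor sequence joined to different acceptor exons. Of the 498 back-splices, 495 lay between a GT downstream of the donor and an AG upstream of the acceptor, and the remaining 3 between GC and AG.

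Counted by exon number, several genes reused 1 splice site. In GSK3B, which encodes a kinase inhibited by AKT, 6 circRNAs ended at exon 9 and held 89.1% of the gene's 1618 reads. In PIK3C3, the catalytic subunit of class III PI3K, 7 circRNAs ended at exon 21 and held 57.4% of 697 reads. In SOS2, a Ras exchange factor, 5 circRNAs ended at exon 14 with 61.2% of 905 reads. In BRAF, a kinase of the ERK branch, 7 circRNAs ended at exon 13 with 49.4% of 429 reads, and 8 began at exon 4 with 46.6%. Acceptor sites were also shared in the Ras GTPase-activating proteins: 4 circRNAs began at exon 2 of NF1 with 86.2% of 340 reads, and 9 began at exon 2 of RASA1 with 88.5% of 270 reads. The back-splice reads do not show which exons between the ends were retained.

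**Figure D1:**
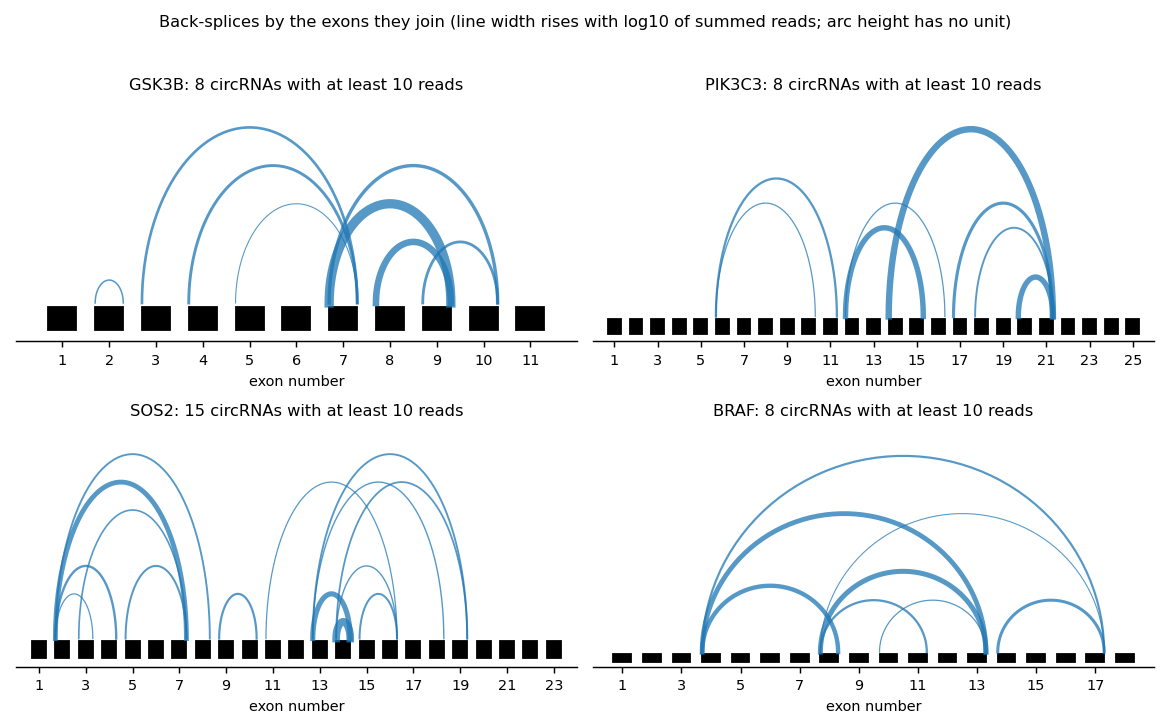
Back-splices of GSK3B, PIK3C3, SOS2 and BRAF drawn over exon numbers (x axis, canonical GENCODE transcript, exons not to scale), where each arc joins the acceptor and donor exons of a circRNA with at least 10 summed reads and the line width rises with log10 of its reads. Arcs meet at exon 9 of GSK3B, exon 21 of PIK3C3, exon 14 of SOS2 and exons 4 and 13 of BRAF.

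Compared with the 48401 circRNAs of the whole list that were assigned by transcript, members had the same median exon number, 4, and a median spliced length of 548.5 against 515 bases. The median introns upstream and downstream were 5698 and 4608 bases in members and 5371 and 4396 bases in all. Exon 2 was the acceptor in 10.8% of members and 21.1% of all, and 4.42% against 4.60% were from a single exon. These differences were not tested.

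Member circRNAs were more abundant per sequenced read in differentiated cultures than at day 0. Their summed level was 0.630 ± 0.138 RPM (SD, n = 3) at day 0, 6.17 ± 2.04 in untreated and 5.06 ± 0.755 in IGF-1-treated cultures at day 45, and 4.24 ± 1.10 and 4.72 ± 0.981, respectively, at day 90. The lowest differentiated library, at 3.00 RPM, was above the highest day 0 library, at 0.713 RPM. The members' share of all back-splice reads was 0.443% to 0.594% in the 3 day 0 libraries and 0.725% to 0.971% in the 12 later ones, without overlap. This share weighs most the 5 genes that held 59.5% of member reads, and it was not computed without them. From day 0 to untreated day 45, GSK3B went from 32 to 482 reads, SOS2 from 10 to 271 and PIK3C3 from 14 to 209. RICTOR went from 36 to 239 and EIF4G3 from 24 to 218, and all members together from 255 to 2365. Day 0 libraries held 42 to 53 distinct members each and later libraries 110 to 186.

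**Figure D2:**
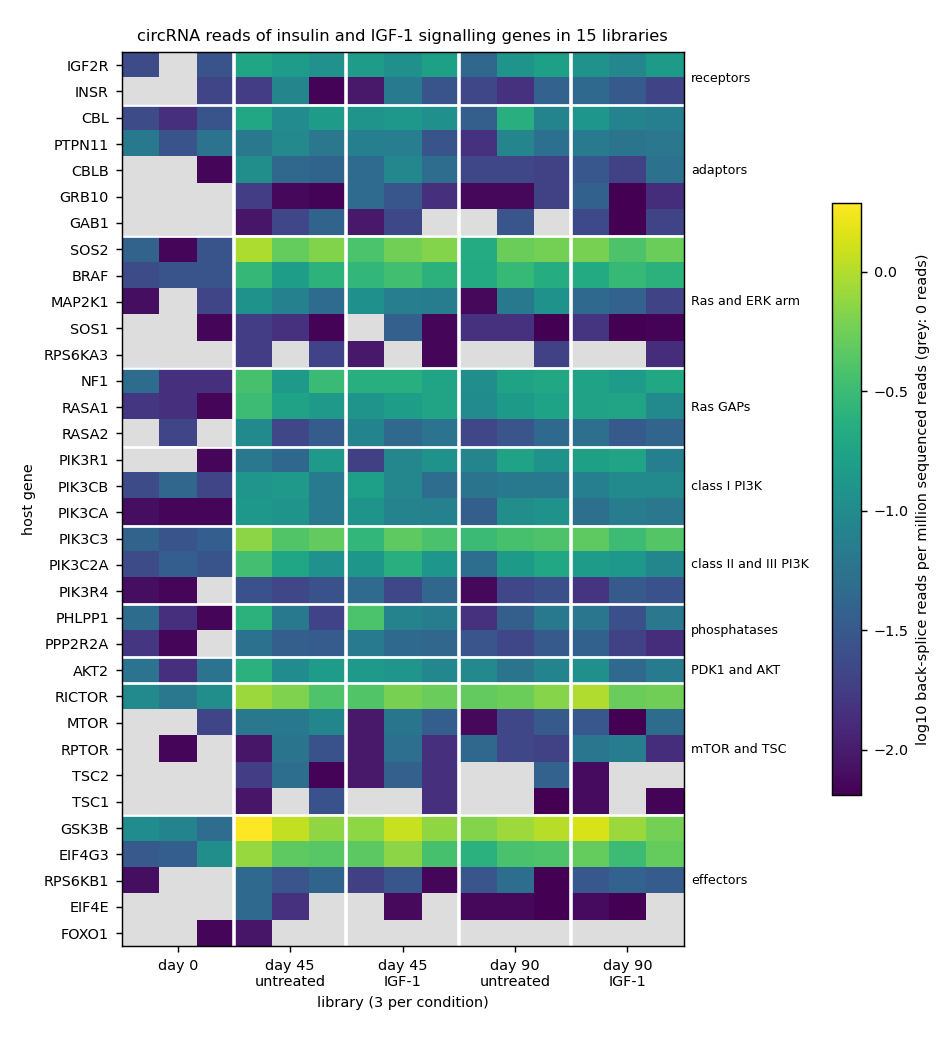
Heat map of back-splice reads in RPM, on a log10 colour scale, for the 34 member genes (rows, grouped by role) in 15 libraries (columns, 3 per condition). Grey cells had 0 reads and dark cells few; the day 0 columns are grey or darker than the later ones for most genes, but not for PTPN11, with a mean of 0.0498 RPM at day 0 and 0.0728 RPM at untreated day 45.

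Differences were tested on the raw counts by the quasi-likelihood method of edgeR, with the sequenced reads as library sizes and Benjamini-Hochberg adjustment over all features. Between day 0 and untreated day 45, 46 of the 108 tested member circRNAs rose and 0 fell, or 42.6%, compared with 40.9% of all 12498 tested circRNAs rising. The share of members called was thus near the background. At an unadjusted p under 0.05 there were 57 members, compared with 53.4% of all, and 105 of the 108 had a fitted change above 0, compared with 94.6% of all. Between day 0 and untreated day 90, which share the day 0 libraries with the first comparison, 26 of 108 rose and 0 fell, compared with 21.7% of all rising, and 90 of 108 had a fitted change above 0, compared with 88.2% of all. DESeq2's Wald test called 36 and 25 of the 108 members, all higher, compared with 32.7% and 20.4% of all circRNAs higher. Without day 0 replicate 1 the first count fell to 30.

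Summed per gene, 27 of the 33 member genes with at least 10 reads rose by day 45 and 0 fell, compared with 61.9% of all 4616 genes tested rising. 16 of them also passed at day 90, compared with 43.4% of all genes rising, and no gene passed at day 90 without passing at day 45. Those that passed at day 45 alone were AKT2, PIK3CB, PHLPP1, RASA2, CBLB, MTOR, PPP2R2A, INSR, TSC2, GAB1 and EIF4E. Their adjusted p in edgeR at day 90 lay between 0.0513 (TSC2) and 0.370 (PHLPP1). The median log2 change at day 45 was 3.25 for member genes and 2.77 for all genes, or 2.79 and 2.08 with genes without a day 0 read placed at the limit of 3 reads. This scale carries the rise of circRNAs as a whole. When libraries were scaled to their back-splice reads with TMM factors, the medians became 1.17 and 0.82, and 5 member genes were higher and 1 lower at day 45, compared with 13.9% of all genes called. The higher 5 were SOS2 (log2 change 2.63, SE 0.42), RASA1 (1.85, SE 0.59), PIK3C3 (1.78, SE 0.39), GSK3B (1.77, SE 0.33) and EIF4G3 (1.08, SE 0.36), with adjusted p between 3.57e-06 and 0.0316. The gene lower on that scale was PTPN11 (-1.54, SE 0.54, adjusted p = 0.0436).

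**Figure D3:**
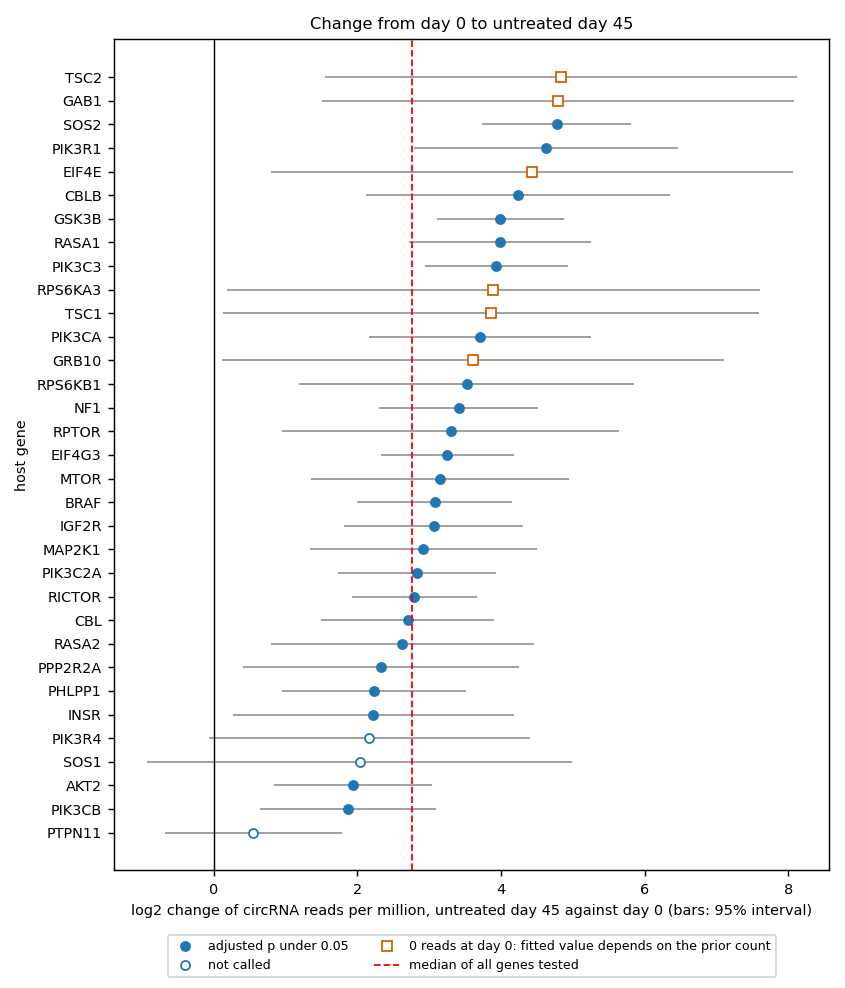
Log2 change of circRNA RPM from day 0 to untreated day 45 (x axis) with 95% intervals for 33 member genes (y axis); the dashed line marks the median of all 4616 genes, 2.77. Filled circles passed an adjusted p of 0.05, and orange squares mark the 6 genes without a day 0 read, whose fitted value depends on the prior count (TSC2, GAB1 and EIF4E among them passed). AKT2, PIK3CB and PTPN11 lie lowest, and these and PHLPP1 turn negative when scaled to back-splice reads with TMM factors.

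Among the receptors, IGF1R and IGF2R were mainly represented by 1 circRNA each, whereas INSR was not. The IGF1R circRNA consisted of exon 2 alone, 546 bases long, and held 259 of the 282 reads of the gene's 11 circRNAs. It had 7, 2 and 10 reads in the day 0 libraries, 29, 35 and 19 in untreated and 8, 22 and 15 in IGF-1-treated cultures at day 45, and 8, 15 and 24 in untreated and 36, 10 and 19 in treated cultures at day 90. All untreated day 45 libraries, between 0.130 and 0.262 RPM, were above the day 0 libraries, between 0.0141 and 0.0713 RPM. The log2 change at day 45 was 2.17 (SE 0.54, adjusted p = 0.000494). The median of all circRNAs was 2.87 as fitted, but 1.46 with circRNAs without a day 0 read placed at the limit of 3 reads. The IGF1R change thus lay below the first median and above the second. At day 90 the groups overlapped and the log2 change of 1.19 did not pass (adjusted p = 0.102).

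IGF2R encodes the mannose-6-phosphate receptor that clears IGF-2. Its exon 15 to exon 18 circRNA held 179 of 219 reads, with 3, 0 and 2 at day 0, 13, 15 and 15 in untreated and 15, 11 and 16 in treated cultures at day 45, and 5, 15 and 23 and 14, 12 and 20, respectively, at day 90. The change at day 45 was 3.05 (SE 0.71, adjusted p = 0.000168), with no overlap, and IGF-1-treated and untreated libraries overlapped at each day. INSR had 20 circRNAs with 57 reads in all, and the most abundant, from exon 3, had 10. As a gene INSR passed at day 45 (log2 change 2.22, adjusted p = 0.0427), but it had only 3 day 0 reads, and without untreated day 45 replicate 2 the change was 0.64 (adjusted p = 0.688).

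Adaptors and docking proteins connect the receptors to the PI3K and Ras branches, or end signalling. The ubiquitin ligases CBL (log2 change 2.70, SE 0.62, adjusted p = 4.79e-05) and CBLB (adjusted p = 0.000284) rose by day 45, and CBLB went from 1 to 24 summed reads, a ratio of 24.7 with a 95% counting interval of 4.03 to 1016 (exact). With circRNAs assigned by exon ends, CBLB had 3 and 35 reads, a ratio of 12.01 (3.79 to 61.0). GAB1, a docking protein, had 0 reads at day 0 and 1, 3 and 6 at untreated day 45. Per sequenced read, these 10 reads were 3.43-fold above the limit of 3 day 0 reads, leaving aside their own counting error. GRB10, an inhibitory adaptor, had 4 reads at day 45 after 0 at day 0 and did not pass. PTPN11, the phosphatase SHP2, had the highest day 0 level of the 5, 0.0498 ± 0.0191 RPM (SD, n = 3), and 0.0728 ± 0.0183 RPM at untreated day 45. Its libraries overlapped and its log2 change of 0.56 (95% interval -0.68 to 1.79) did not pass (adjusted p = 0.428). PTPN11 has near-identical pseudogenes, as do NF1, PIK3CA, BRAF and EIF4E, so their counts may include or lack reads of the copies.

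In the Ras and ERK branch, SOS2 stood highest. Its exon 14 circRNA, 223 bases long, had 3, 0 and 2 reads at day 0, 47, 30 and 45 in untreated and 24, 40 and 51 in treated cultures at day 45, and 14, 45 and 34 and 35, 31 and 41, respectively, at day 90. Each differentiated library was above every day 0 library. Summed over conditions, untreated day 45 was 25.1-fold above day 0 (95% counting interval 10.5 to 78.7), and the fitted log2 change was 4.57 (SE 0.63, adjusted p = 2.69e-11). The circRNA of exons 13 and 14, with the same donor, had 0 reads at day 0 and 38 at untreated day 45. Per sequenced read this was 13-fold above the limit of 3 day 0 reads, leaving aside counting error in the 38.

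BRAF rose by day 45 (log2 change 3.08, SE 0.55, adjusted p = 1.85e-07), as did MAP2K1, its substrate kinase (2.92, adjusted p = 0.000884). SOS1 (21 reads) and RPS6KA3 (12 reads), a kinase activated by ERK, did not pass. With circRNAs assigned by exon ends, RPS6KA3 had 214 reads and rose (3.13, SE 0.62), and so did SOS1 with 131 reads (2.12, SE 0.66, adjusted p = 0.00323). The Ras GTPase-activating proteins NF1 (3.41, SE 0.56) and RASA1 (3.99, SE 0.65) rose, and RASA2 rose in the full set of libraries (2.63, adjusted p = 0.0103). The exon 2 to exon 5 circRNA of NF1 held 133 reads, of which 4 were at day 0 and 38 at untreated day 45. The circRNA with the same exon numbers in RASA1 had 0, 1 and 0 reads at day 0, 17, 11 and 14 in untreated and 3, 10 and 18 in treated cultures at day 45, and 9, 13 and 14 and 13, 16 and 7, respectively, at day 90. No differentiated library of circRASA1 was as low as the day 0 libraries.

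The PI3K genes encode the lipid kinases that act after the adaptors. The regulatory subunit PIK3R1 was represented almost only by its exon 2 circRNA, which includes untranslated sequence and held 179 of 180 reads. It had 0, 0 and 1 reads at day 0, 7, 6 and 20 in untreated and 2, 12 and 17 in treated cultures at day 45, and 11, 24 and 18 and 22, 28 and 11, respectively, at day 90. The fitted log2 changes from day 0 were 4.62 at day 45 and 5.20 at day 90 (adjusted p = 1.31e-05 and 3.17e-07), and PIK3R1 was the member gene with the largest positive difference between untreated day 90 and day 45, 0.61, which did not pass (unadjusted p = 0.249). The catalytic subunits PIK3CA (3.71, SE 0.79) and PIK3CB (1.87, SE 0.62) rose by day 45. Scaled to back-splice reads, the change of PIK3CB was -0.27. The leading PIK3CA circRNA, exons 5 and 6, held 126 of 145 reads, whereas the leading one of PIK3CB held 28 of 157.

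PIK3C3 rose by 3.93 (SE 0.51, adjusted p = 3.44e-13) on the log2 scale and PIK3C2A, a class II enzyme, by 2.84 (SE 0.56). The exon 14 to exon 21 circRNA of PIK3C3 had 2, 2 and 0 reads at day 0, 22, 16 and 28 in untreated and 4, 25 and 13 in treated cultures at day 45, and 15, 15 and 19 and 25, 14 and 21, respectively, at day 90. The leading PIK3C2A circRNA, exons 7 to 12, held 111 reads, 5 of them at day 0 and 34 at untreated day 45. PIK3R4, the partner of PIK3C3, did not pass (adjusted p = 0.0836).

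AKT2 was the only member of its group, PDK1 and AKT, with circRNAs. Its exon 2 to exon 4 circRNA had 7, 1 and 8 reads at day 0, 17, 12 and 21 in untreated and 15, 16 and 10 in treated cultures at day 45, and 11, 8 and 11 and 12, 5 and 8, respectively, at day 90. Its log2 change at day 45 was 1.66 (SE 0.59, adjusted p = 0.0173), the smallest of the 12 most abundant members, and did not pass without day 0 replicate 2 (1.16, adjusted p = 0.143). Scaled to back-splice reads, its change was -0.058. At day 90 it did not pass (0.80, adjusted p = 0.301).

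The phosphatase genes PHLPP1 and PPP2R2A, whose products oppose AKT, rose by 2.23 (adjusted p = 0.00178) and 2.33 (adjusted p = 0.0313). PHLPP1 varied widely, with 0.113 ± 0.123 RPM (SD, n = 3) at untreated day 45 and 0.18 ± 0.18 RPM in treated cultures, against 0.0231 ± 0.0219 RPM at day 0. Without untreated day 45 replicate 1 its change was 0.90 (adjusted p = 0.322), and scaled to back-splice reads it was -0.018.

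RICTOR, the defining subunit of mTOR complex 2, was the second gene by reads. Its exon 4 to exon 7 circRNA had 11, 7 and 10 reads at day 0, 58, 72 and 51 in untreated and 31, 61 and 52 in treated cultures at day 45, and 52, 56 and 82 and 104, 51 and 60, respectively, at day 90. It was present in all 15 libraries, and every differentiated library was above day 0. The log2 change at day 45 was 2.73 (SE 0.48, adjusted p = 3.39e-07). The exon 3 to exon 7 circRNA had 0, 2 and 2 reads at day 0, 9, 6 and 6 in untreated and 5, 12 and 11 in treated cultures at day 45, and 6, 12 and 19 and 17, 22 and 13, respectively, at day 90. Its change at day 45, 2.36 (adjusted p = 0.0133), did not pass without day 0 replicate 1 or untreated day 45 replicate 1 (1.87 and 2.01), whereas its change at day 90 was 3.01 (adjusted p = 0.00109).

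MTOR, the kinase itself, had 19 circRNAs with 67 reads, of which 0, 0 and 3 were in the day 0 libraries. It rose by 3.16 by day 45 (adjusted p = 0.00156) but did not pass at day 90 (1.39, adjusted p = 0.255). RPTOR, the defining subunit of mTOR complex 1, rose by 3.30 (adjusted p = 0.0119) with 1 day 0 read. TSC1 and TSC2 encode the inhibitor of mTOR complex 1 and had 0 day 0 reads. TSC2 had 10 reads at untreated day 45 (2, 7 and 1) and passed (adjusted p = 0.00853). Per sequenced read this was 3.43-fold above the limit of 3 day 0 reads, leaving aside counting error in the 10. TSC1, with 5 reads at untreated day 45, did not pass.

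The effectors held 2457 member reads, the most of any group. The circRNA of GSK3B exons 7 to 9, the most abundant member with 1183 reads, had 8, 6 and 1 reads at day 0, 158, 124 and 59 in untreated and 56, 123 and 80 in treated cultures at day 45, and 65, 87 and 124 and 133, 92 and 67, respectively, at day 90. All 12 differentiated libraries were above all 3 day 0 libraries. Levels rose from 0.0378 ± 0.0287 RPM (SD, n = 3) to 0.908 ± 0.512 RPM at untreated day 45, and the log2 change was 4.57 (SE 0.51, adjusted p = 2.61e-16), with the smallest adjusted p of the members. At day 90 the log2 change was 4.06 (adjusted p = 7.46e-13).

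The second GSK3B circRNA, exons 8 and 9, had 5, 2 and 2 reads at day 0, 20, 26 and 28 in untreated and 10, 20 and 17 in treated cultures at day 45, and 19, 18 and 20 and 30, 17 and 7, respectively, at day 90. Its log2 change at day 45 was 3.01 (SE 0.61, adjusted p = 1.10e-05). The share of the exon 7 to 9 circRNA among all GSK3B circRNA reads was 46.9% (95% Wilson interval 30.9 to 63.6, 15 of 32 reads) at day 0 and 70.7% (66.5 to 74.6, 341 of 482 reads) at untreated day 45. By library the share was 14.3% to 61.5% at day 0 and 53.6% to 78.5% at untreated day 45, so that the groups overlapped.

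EIF4G3, a translation initiation scaffold, had 28 circRNAs and rose by 3.25 (SE 0.47, adjusted p = 8.65e-11). Its leading pair shared the acceptor of exon 4 in the transcript they are named after, in untranslated sequence. The circRNA ending at exon 5 had 0, 3 and 0 reads at day 0, 16, 23 and 15 in untreated and 22, 30 and 9 in treated cultures at day 45, and 10, 15 and 19 and 16, 14 and 17, respectively, at day 90. The circRNA ending at exon 6 had 2, 1 and 1 reads at day 0, 16, 15 and 26 in untreated and 9, 28 and 12 in treated cultures at day 45, and 13, 13 and 20 and 19, 9 and 22, respectively, at day 90. Both were higher in every differentiated library than in any day 0 library.

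RPS6KB1, the S6 kinase, rose by 3.52 (adjusted p = 0.00684) with 1 day 0 read. EIF4E, the cap-binding protein, had 0 reads at day 0 and 5, 2 and 0 at untreated day 45. Per sequenced read, these 7 reads were 2.40-fold above the limit of 3 day 0 reads, leaving aside their own counting error. FOXO1, a transcription factor inhibited by AKT, had 2 reads in all and was not tested.

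**Figure D4:**
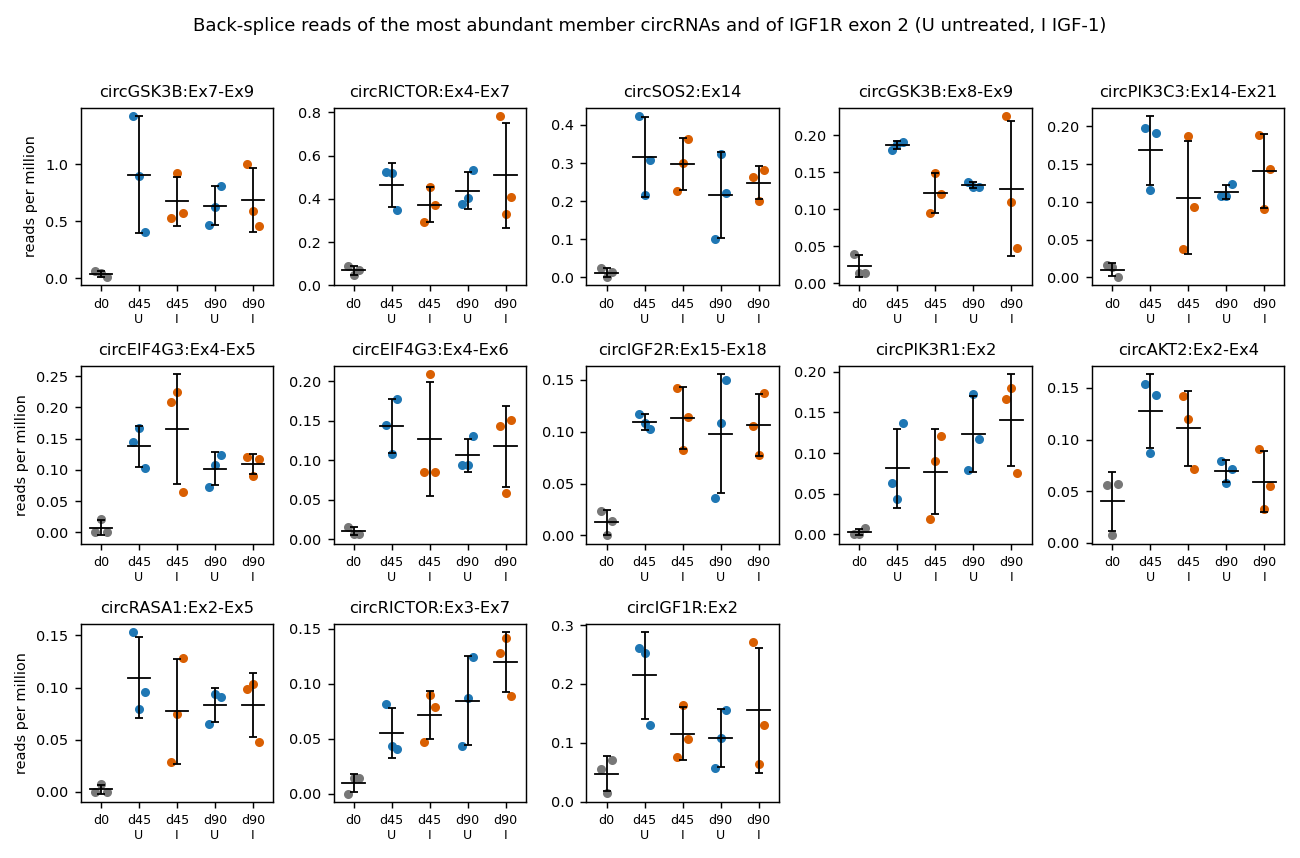
Back-splice reads in RPM (y axis) of the 12 most abundant member circRNAs and of circIGF1R Ex2 in each library (points) under 5 conditions (x axis; d, day; U, untreated; I, IGF-1), with the mean and SD of 3 libraries. The points of IGF-1-treated and untreated cultures overlap at day 90 in each panel, and untreated day 45 points lie above day 0 points in each panel.

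The 12 most abundant members all passed, with log2 changes between 1.66 and 5.02, and none of their untreated day 45 libraries overlapped with day 0. Of the tested members, 50 had no overlap, or 46.3%, compared with 46.2% of all circRNAs. Fitted changes below 0 were found for exon 2 of CBL (-0.52, with 2, 0 and 1 reads at day 0 and 0, 1 and 1 at untreated day 45) and exons 3 and 4 of RPS6KB1 (-0.011, with 1 read at day 0 and 1 at untreated day 45), and neither passed. The remaining member, exons 3 and 4 of PHLPP1, had 0 reads at day 0 and at untreated day 45 and a fitted change of 0. Leaving out 1 library ended 7 of the 27 gene calls. This held for PHLPP1 without untreated day 45 replicate 1, TSC2 without untreated day 45 replicate 2 (adjusted p = 0.0814), RPTOR without day 0 replicate 3 (0.0513) or untreated day 45 replicate 2, and RASA2 without day 0 replicate 1 or 3 or untreated day 45 replicate 1 (up to 0.134). It also held for PPP2R2A without day 0 replicate 2 or 3 or untreated day 45 replicate 1 (up to 0.128), INSR without day 0 replicate 1 or 2 or untreated day 45 replicate 2, and EIF4E without any of the day 0 libraries or untreated day 45 replicate 1 (up to 0.186). Of the 16 gene calls at day 90, 4 ended in the same way: CBL without untreated day 90 replicate 2 (adjusted p = 0.113), MAP2K1 without day 0 replicate 2 or untreated day 90 replicate 3 (up to 0.139), RPTOR without day 0 replicate 1 or 3 or untreated day 90 replicate 1 (up to 0.0947) and RPS6KB1 without day 0 replicate 2 or 3 or untreated day 90 replicate 2 (up to 0.164).

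Between untreated day 45 and untreated day 90, 0 of the 108 member circRNAs and 0 of the 33 genes passed in edgeR, compared with 0.08% of all circRNAs (0.064% lower) and 0.282% of all genes. At an unadjusted p under 0.05 there were 11 circRNAs, all lower at day 90, compared with 9.61% of all, and 4 genes, AKT2, PHLPP1, CBLB and MTOR, also all lower, compared with 14% of all. DESeq2's Wald test called 0 circRNAs and 0 genes, with 3 and 0 at an unadjusted p under 0.05. The median log2 change was -0.52 for the members and -0.61 for all circRNAs.

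The comparison of IGF-1-treated with untreated cultures asked whether circRNAs of the pathway that IGF-1 activates differed with its addition. At day 45, 0 of the 108 member circRNAs passed in edgeR, compared with 0.016% of all circRNAs, and 0 of 33 genes, compared with 0.0217% of all. At day 90 there were again 0 circRNAs and 0 genes, compared with 0.008% and 0.0217%. At an unadjusted p under 0.05, 3 member circRNAs were found at day 45 and 4 at day 90, compared with 4.58% and 4.17% of all circRNAs, and 0 genes at either day, compared with 4.51% and 3.25% of all genes. DESeq2's Wald test called 0 members at either day and had 0 at an unadjusted p under 0.05. The mean of the IGF-1 effects at both days gave 0 circRNAs and 0 genes, compared with 0.008% and 0.0433% of all, with 2 and 0 at an unadjusted p under 0.05; 56 of the 108 had a mean effect above 0, compared with 48.8% of all.

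The intervals show what sizes of effect the data leave possible. For the 18 genes with at least 100 reads, log2 changes lay between -0.51 and 0.69 at day 45 and between -0.86 and 0.51 at day 90. Their 95% intervals reached from -1.53 to 1.72 and from -2.17 to 1.61, respectively. GSK3B had -0.51 (-1.24 to 0.22) at day 45 and 0.11 (-0.62 to 0.84) at day 90. RICTOR had -0.28 (-1.04 to 0.48) and 0.26 (-0.49 to 1.01). PIK3C3 had -0.51 (-1.29 to 0.27) and 0.16 (-0.62 to 0.95). Among the receptors, IGF2R had -0.09 (-1.04 to 0.87) and 0.10 (-0.88 to 1.07), and INSR -0.06 (-1.65 to 1.53) and 0.35 (-1.28 to 1.98).

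At day 45, 8 of 33 member genes had a fitted IGF-1 change above 0, compared with 32.8% of all genes, and at day 90 23 of 33, compared with 65.3% of all. The medians of members and of all genes lay close together, at -0.27 and -0.28 for day 45 and 0.16 and 0.21 for day 90. Scaled to back-splice reads, they were -0.039 and -0.050, and -0.022 and 0.020, respectively. Among the circRNAs, 38 and 65 of the 108 members had changes above 0 at the respective days, compared with 38.0% and 60.3% of all. Treated libraries were above all untreated ones for 3 members at day 45 and 9 at day 90, compared with 2.45% and 4.98% of all circRNAs, and below them for 8 and 2, compared with 5.89% and 1.93%. Of the 12 most abundant members, circGSK3B Ex8-Ex9 was lower without overlap at day 45 (log2 change -0.60, 95% interval -1.57 to 0.36, unadjusted p = 0.222). A member gene had treated and untreated libraries without overlap in 1 case at each day. MTOR was lower with IGF-1 at day 45 (log2 change -0.99, unadjusted p = 0.177), compared with 6.61% of all genes lower without overlap. PIK3CB was higher at day 90 (0.51, unadjusted p = 0.365), compared with 5.22% of all genes higher without overlap.

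**Figure D5:**
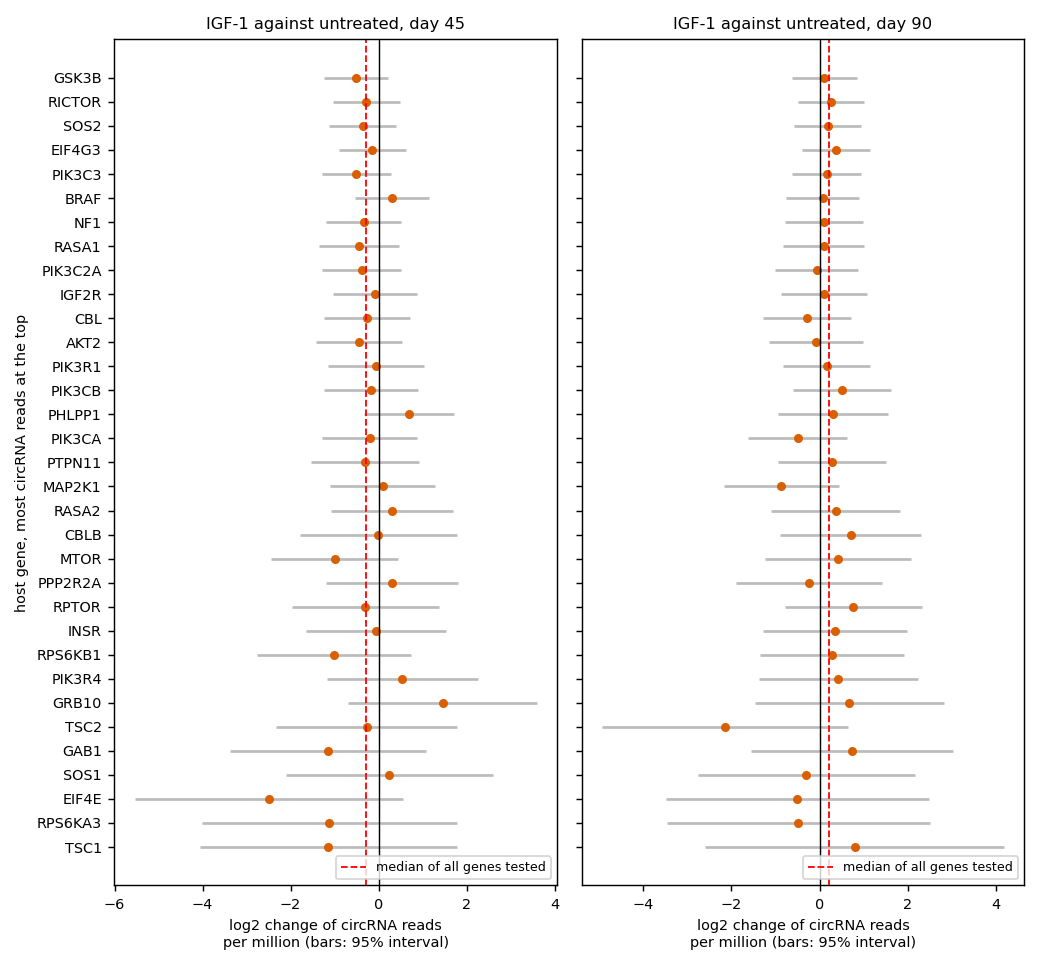
Log2 change of circRNA RPM in IGF-1-treated against untreated cultures (x axis) at day 45 and day 90 for 33 member genes (y axis, ordered by reads), with 95% intervals and the median of all genes (dashed line, -0.28 and 0.21). Every interval contains 0, and intervals widen towards the genes with few reads at the bottom.

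IGF1R exon 2 was the abundant receptor circRNA with the lowest fitted change under IGF-1 at day 45. Its log2 change was -0.87 (95% interval -1.83 to 0.09, unadjusted p = 0.0771, adjusted p = 1.00 in edgeR), with treated libraries at 0.0757 to 0.164 RPM and untreated ones at 0.130 to 0.262 RPM, which overlapped. At day 90 the change was 0.51 (-0.46 to 1.47). The difference between the IGF-1 effects at the 2 days was 1.37 (unadjusted p = 0.0484, adjusted p = 0.987), which did not pass.

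The 3 members with the smallest unadjusted p at each day had few reads and are given as a description. At day 45 these were exons 7 and 8 of MTOR, with 2, 3 and 2 reads in untreated and 0, 0 and 0 in treated libraries (p = 0.0209), exons 3 and 4 of PHLPP1, with 0, 0 and 0 and 2, 1 and 3 reads (p = 0.0252), and exons 3 to 11 of RICTOR, with 4, 1 and 0 and 0, 0 and 0 reads (p = 0.0394). At day 90 they were exons 4 to 7 of GSK3B, with 0, 1 and 0 reads in untreated and 6, 1 and 2 in treated libraries (p = 0.0361), exons 13 and 14 of PIK3CB, with 0, 1 and 0 and 1, 3 and 5 reads (p = 0.0402), and exons 5 to 7 of GSK3B, with 3, 0 and 2 and 0, 0 and 0 reads (p = 0.0407). The adjusted p was 1.00 for each. In the cases with 0 reads the treated or untreated level was at most 0.0079 RPM.

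The IGF-1 effect did not pass a test of difference between day 45 and day 90 for any member. In edgeR 0 of 108 circRNAs and 0 of 33 genes passed, compared with 0% and 0.0217% of all, with 3 and 0 at an unadjusted p under 0.05, compared with 4.82% of all circRNAs and 4.38% of all genes. The effect was more positive at day 90 for 74 of the 108 circRNAs, compared with 66.2% of all. DESeq2's Wald test called 0 and 0, with 2 and 0 at an unadjusted p under 0.05.

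Other genes of the pathway outside the list were counted in the same way. Of 86 further genes, 54 had a circRNA and 33 had at least 10 reads. By untreated day 45, 23 of these 33 had risen and 0 had fallen, compared with 61.9% of all genes rising, and 11 passed at day 90, all higher, compared with 43.4% of all. None passed with IGF-1 at either day in edgeR, with 1 at an unadjusted p under 0.05 at each. For the difference between the IGF-1 effects at day 45 and day 90, 0 passed and 3 had an unadjusted p under 0.05, compared with 4.38% of all genes. Among those with the most reads, the following rose by day 45: EIF4B, an initiation factor, with a log2 change of 2.22 (SE 0.47); TBC1D1, an AKT substrate of glucose transport (2.22, SE 0.47); PIK3R3, a regulatory subunit (4.16, SE 0.61); and PDE3B, an insulin-activated phosphodiesterase (4.11, SE 0.68).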

How the data were processed

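The authors searched paired-end reads for back-splices with PTESFinder, using hg19 and its GENCODE transcripts, and deposited for each circRNA its position, its summed raw counts of back-splice reads and the counts in each library. The submitters' processing notes name FastQC 0.10, TopHat2 2.0.10, HTSeq 0.6.1 and bedtools 2.17. The deposited counts were not normalised, and the 15 libraries were matched to conditions by name (a, b and c read as replicates 1, 2 and 3). In all 55371 circRNAs the library counts added up to the deposited sum. RPM is back-splice reads per 1000000 sequenced reads. Library counts come without molecular identifiers. The exact and Wilson intervals treat reads as independent and cover counting error only, whereas the intervals of the fitted log2 changes include the spread between libraries.

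Genes were assigned with GENCODE 44 on GRCh37 (hg19 coordinates): 48401 circRNAs by the transcript in their name, 6746 by exon ends, 185 matched several genes and 39 none. Sequenced reads per library came from the study's read statistics. A pair of lines there both name untreated day 90 replicate 1 and none names replicate 2, so the mean of the pair was used for both libraries. edgeR 4.0.16 in R 4.3.3 (glmQLFit, glmQLFTest) was fitted to all 15 libraries with a mean per condition, without TMM factors, for circRNAs (12498) and gene sums (4616) with at least 10 counts, and each SE is the absolute log2 change divided by the root of F. Calls used an adjusted p of 0.05. The alternatives tried were scaling by TMM or by size factors of DESeq2 1.42.0, both on back-splice reads, the DESeq2 Wald test, other filters, the replicate number as a block, exon-end assignments, other day 90 read numbers and each library left out. Wilson and exact intervals (95%) were computed with scipy 1.17.1, and junctions were read with pysam 0.24.0. The fit was tested on simulated data in which day 0 was given the mean level of the later libraries. The low counts seen at day 0 were therefore not covered.

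The member genes, lists and rules were chosen with earlier results of these data known. Named were the most abundant circRNA of each gene with at least 100 reads, receptor circRNAs with at least 50, members passing an IGF-1 or day 90 against day 45 test, the 3 smallest p of each IGF-1 comparison and members below 0 at day 45. Other genes named are members given by role. Linear junctions, gene expression and amplicon data were not used here. Values of 1 further pathway gene and 1 marker gene are not reported here.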

Additional observations from a re-analysis of the deposited data

How the results depend on the processing

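Member counts in the 3 IGF-1 comparisons, in the difference between days and between untreated day 90 and day 45 stayed at 0 for circRNAs and genes under every alternative run. The counts against day 0 depended on the library scaling. With TMM factors on back-splice totals, 10 member circRNAs passed at day 45 and 12 at day 90, compared with 7.18% and 6.95% of all circRNAs, and 6 genes (5 higher, 1 lower) and 7 genes, respectively, compared with 13.9% and 14.3% of all genes. With DESeq2 size factors these were 14 and 15 circRNAs (10.2% and 9.22% of all) and 6 and 8 genes (14.8% and 15.3% of all). Both scalings are built on the back-splice reads, which rose as a whole. Without a filter 29 of 498 circRNAs passed at day 45, compared with 5.74% of all. Leaving out single libraries gave 30 (without day 0 replicate 1) to 47 circRNAs at day 45, 21 to 29 at day 90, 23 to 27 genes at day 45 and 15 to 17 at day 90, and 0 to 0 in all other comparisons.

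Single changes at day 45 that turned negative with TMM factors were AKT2 (-0.22; its exon 2 to 4 circRNA -0.058), PIK3CB (-0.27), PHLPP1 (-0.018) and PTPN11 (-1.54), and with DESeq2 size factors AKT2 (-0.15), PIK3CB (-0.20) and PTPN11 (-1.47).

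Adding circRNAs by exon ends raised the members' mean share of back-splice reads to 0.651% at day 0, 0.921% and 0.904% in untreated and treated cultures at day 45 and 0.985% and 0.912% at day 90, from 0.530%, 0.818%, 0.815%, 0.890% and 0.823%. Without single libraries these means were 0.498 to 0.573%, 0.794 to 0.833%, 0.797 to 0.836%, 0.85 to 0.918% and 0.796 to 0.872%.

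Within a day, untreated and treated libraries with equal replicate numbers correlated positively in their departures from the condition means. The correlations over 3469 circRNAs were 0.230, 0.127 and 0.071 at day 45 and 0.019, 0.123 and 0.112 at day 90. Unequal numbers gave -0.17 to 0.081 and -0.121 to 0.015, respectively. Between days, equal numbers gave -0.098 to 0.044. The main tests did not pair libraries, and the labels give equal numbers no shared batch. With a replicate block that joined equal numbers across all days, 39 and 25 circRNAs and 25 and 16 genes passed at days 45 and 90.

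Few back-splice reads were found at day 0: 43 of the 108 tested circRNAs had 0 reads there and 102 had at most 3 in each library.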
